A study of Mus musculus with 17 samples.

Results

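The genes described here are the subunits of the transcription factor NF-κB and its feedback inhibitors. The 10 members were chosen by name from the 31091 gene identifiers of the count table, with earlier results of these data known. Nfkb1, Nfkb2, Rel, Rela and Relb encode the subunits. Nfkbia, Nfkbib and Nfkbie encode the classical inhibitors IκBα, IκBβ and IκBε, Nfkbiz encodes the nuclear protein IκBζ, and Tnfaip3 encodes the ubiquitin-editing enzyme A20. All 10 had counts in every sample and were tested in every comparison.

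Conventional dendritic cells of type 1 (cDC1s) and type 2 (cDC2s) were taken from spleens of female C57BL/6JRj mice, obtained at 8 weeks of age, that carried B16 tumors secreting FLT3 ligand, which expands both lineages. CD11c+ cells pooled from several spleens were cultured for 6 h in the presence of GM-CSF with medium from TC-1 tumor cells, a mouse lung carcinoma line, and cDC1s and cDC2s were then sorted from these cultures for bulk RNA sequencing. There were 3 media. WT medium came from live wild-type TC-1 cells, BimS medium from TC-1-iBimS cells dying by apoptosis, and RIPK3 medium from TC-1-iRIPK3 cells dying by necroptosis, and cumate, which switches on the death gene in the engineered lines, was given to the wild-type cells as well. Each engineered line is 1 clone, and its medium was added uncleared, with dead cells, fragments and soluble material together, so that these components and the properties of the clone cannot be told apart. Each of the 6 groups holds 3 samples, except that of cDC2s with RIPK3 medium, which holds 2, so that the data comprise 17 samples. The labels do not say whether replicates came from separate animals or cultures, so p-values measure the spread between these samples, which may be technical.

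NF-κB subunits act as homodimers and heterodimers that are held inactive in the cytoplasm by IκB proteins. Upon stimulation, for example through Toll-like receptors or TNF receptors, an IκB kinase complex marks IκBα for degradation and the dimers enter the nucleus. RELA and c-REL, the product of Rel, carry activation domains, while p50 from Nfkb1 and p52 from Nfkb2 bind DNA without one. RELB pairs mainly with p52 in the slower, non-canonical branch. The genes for IκBα, IκBζ and A20 are themselves induced by NF-κB. IκBα and A20 give the pathway negative feedback, while IκBζ acts in the nucleus as a cofactor for p50. In dendritic cells, NF-κB controls genes for cytokines, costimulation and survival.

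Counts on genes ranged from 16095159 to 21645289 per sample. Levels are given as CPM, counts relative to a scaled library of a common size, and an adjusted p is from edgeR's quasi-likelihood test with Benjamini-Hochberg adjustment over all genes tested, with a threshold of 0.05. A gene that passed it is said to have risen or fallen. Shares of all genes given beside the members include genes with low counts. Sorted identities matched their markers. The 8 cDC1 markers summed to 1409 to 1735 CPM in cDC1s against 99 to 132 CPM in cDC2s, and the 8 cDC2 markers to 288 to 375 CPM in cDC2s and 2.9 to 5.24 CPM in cDC1s. The 6 B cell markers stayed at or below 1.68 CPM in sum, the 7 T and NK cell markers at or below 1.64 CPM and the 6 neutrophil markers at or below 4.21 CPM. The plasmacytoid list reached 217.6 CPM in cDC2s, mostly through Tcf4, while its defining marker Siglech had group means up to 0.565 CPM. Of the 8 epithelial and tumor cell markers in the table, the sum was at most 4.62 CPM in cDC1s and reached 40.7 CPM in cDC2s, mostly through Cdh1.

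Upstream sequences are shown for 3 members. Relb and Nfkbia are the members with a match to the κB consensus, a 10-base sequence that NF-κB dimers bind. It is read here as GGG, a purine, any base, 3 pyrimidines and CC. Nfkb1 is the member with the largest fall in cDC1s with BimS medium. Each sequence comprises the 250 bases before the start of the canonical transcript in GRCm39 with GENCODE M39, 5′ to 3′ on the strand of the gene, and capitals mark the match. The lines are Nfkb1 (upstream at chr3:135397743-135397992, minus strand), Relb (chr7:19363424-19363673, minus strand) and Nfkbia (chr12:55539433-55539682, minus strand).
Nfkb1: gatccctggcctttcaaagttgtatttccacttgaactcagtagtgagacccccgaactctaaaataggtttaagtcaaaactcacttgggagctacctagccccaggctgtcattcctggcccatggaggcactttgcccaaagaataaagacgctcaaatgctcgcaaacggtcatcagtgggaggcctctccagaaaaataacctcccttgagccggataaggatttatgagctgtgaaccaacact
Relb: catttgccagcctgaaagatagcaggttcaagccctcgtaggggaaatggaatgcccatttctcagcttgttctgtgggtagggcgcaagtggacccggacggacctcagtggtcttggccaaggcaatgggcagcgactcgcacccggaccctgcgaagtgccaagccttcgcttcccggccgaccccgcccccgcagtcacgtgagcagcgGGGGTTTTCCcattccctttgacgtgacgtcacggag
Nfkbia: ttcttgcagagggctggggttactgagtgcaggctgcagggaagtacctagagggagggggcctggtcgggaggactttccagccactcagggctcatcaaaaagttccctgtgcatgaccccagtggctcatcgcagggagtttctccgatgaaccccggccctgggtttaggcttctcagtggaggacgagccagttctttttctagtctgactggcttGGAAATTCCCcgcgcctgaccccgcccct

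The match of Relb lay on the forward strand, 37 to 28 bases before the transcript start. That of Nfkbia lay on the reverse strand, 29 to 20 bases before it. The other 8 members had no match to these letters on either strand of the 250 bases, which says nothing about sites elsewhere. Over all 21770 protein-coding genes, 1124 windows (5.16%) held a match. The count depends on the form of the consensus. With A or T in place of a pyrimidine at the sixth base, a form tried after seeing the data, 4 members held a match, Relb and Nfkbia at the same place, Tnfaip3 from 97 to 88 and Nfkbie from 86 to 77 bases before the start, both on the forward strand, and 921 of all windows did (4.23%). The windows of Nfkb1, Nfkbia and Nfkbiz contained no annotated exon base of any gene, that of Relb contained 2, Nfkbie 21 and Rel 31. Those of Nfkb2 and Rela were annotated exon over all 250 bases, Nfkbib over 215 and Tnfaip3 over 148. The windows of Nfkbiz (chr16:55642920-55643169) and Nfkbib (chr7:28466066-28466315) lay within the bounds of their own genes. For such windows the lack of a match does not describe sequence before the gene.

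The first question was how much of each transcript the cell types contained after 6 h with medium from live cells. No sample was taken before the culture. With WT medium, all 10 members were lower in cDC1s than in cDC2s, where 23.7% of the 19082 genes tested were lower and 46.2% differed in either direction. Under filterByExpr, another filter on low counts, 4419 of 14163 genes were lower and 8624 differed. The samples of the cell types did not overlap for 10 of 10 members, against 52.5% of all genes. The median log2 fold change of the members was -0.66, and that of all genes was 0.01. Other measures differed between the cell types as well. The 8 macrophage and monocyte markers, 3 of them at or above 1 CPM and none at 0 in either cell type, summed to 8.6 to 10.7 CPM in cDC1s and to 17.2 to 28.3 CPM in cDC2s with WT medium. The mitochondrial share of counts was 0.821 to 0.908% in cDC1s and 0.629 to 0.661% in cDC2s. Their part in the difference of the members was not tested. Both cell types were sorted from the same cultures, but this comparison did not pair their samples. With the replicate number as a block all 10 members were lower, where 4754 of 19082 genes were. A difference in bulk RNA does not distinguish less RNA per cell from fewer cells that express the gene.

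Nfkb1 (chr3:135290264-135397742, minus strand) had the largest difference among the subunits. Its levels were 1224, 1249 and 1190.0 CPM in the cDC1 samples and 2548, 2433 and 2289 CPM in the cDC2 samples. The highest cDC1 sample stood far below the lowest cDC2 sample (log2 fold change -0.99 ± 0.0577 (SE), adjusted p = 1e-14). Relb (chr7:19339017-19363425, minus strand), the subunit of the non-canonical branch, was at 151, 144 and 151 CPM in cDC1s against 232, 239 and 276 CPM in cDC2s. Its difference came next among the subunits (log2 fold change -0.75 ± 0.0716 (SE), adjusted p = 5.6e-10). Nfkb2 (chr19:46292759-46303812, plus strand), which encodes the p100 precursor of p52, was at 452, 442 and 451 CPM in cDC1s against 632, 615 and 607 CPM in cDC2s, with little spread in either group (log2 fold change -0.46 ± 0.0546 (SE), adjusted p = 3.12e-08). Exons of Psd and 4833438C02Rik overlap 38.1% of the exon bases of Nfkb2, with 7315 counts over all samples for these genes and 176727 for Nfkb2, and the sources used here do not say whether counting used strand.

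Rel (chr11:23686847-23721264, minus strand) was at 1019, 981 and 963 CPM in cDC1s against 1603, 1359 and 1074 CPM in cDC2s. The cDC1 samples were close together, whereas the cDC2 samples spread with a coefficient of variation of 19.6%, and the lowest of them exceeded the highest cDC1 sample by little (log2 fold change -0.45 ± 0.128 (SE), adjusted p = 0.00974). Without replicate 1 of the cDC2s the difference in Rel missed the threshold (-0.30, adjusted p = 0.0629). Rela (chr19:5687493-5698161, plus strand), the main activating subunit of the canonical branch, was at 190.3, 192 and 196 CPM in cDC1s against 237, 248 and 244 CPM in cDC2s. This was the smallest difference among the subunits, with tight groups (log2 fold change -0.33 ± 0.0562 (SE), adjusted p = 1.17e-05).

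Among the inhibitors, Nfkbia (chr12:55535332-55539432, minus strand) differed most of all 10 members. The cDC1 samples contained 339, 324 and 306 CPM and the cDC2 samples 932, 942 and 1104 CPM, a level 67.5% lower in cDC1s (log2 fold change -1.62 ± 0.0729 (SE), adjusted p = 2.5e-17). Nfkbiz (chr16:55631738-55659262, minus strand), whose product acts in the nucleus as a cofactor for p50, was at 45.2, 45.4 and 41.3 CPM in cDC1s against 97.3, 91.9 and 76.8 CPM in cDC2s. Its level was low in both and 50.4% lower in cDC1s (log2 fold change -1.01 ± 0.0832 (SE), adjusted p = 2.18e-11). Nfkbie (chr17:45866585-45874661, plus strand) was at 277, 286 and 282 CPM in cDC1s against 450.3, 479 and 496 CPM in cDC2s, without overlap (log2 fold change -0.76 ± 0.058 (SE), adjusted p = 5.08e-12).

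Nfkbib (chr7:28457486-28466937, minus strand) was at 212, 195 and 199 CPM in cDC1s against 268, 294 and 344 CPM in cDC2s (log2 fold change -0.58 ± 0.0796 (SE), adjusted p = 4.47e-07). Exons of Sirt2, Ccer2 and Gm71901 overlap 29.4% of its exon bases, with 29371 counts against 80613 for Nfkbib. Tnfaip3 (chr10:18874201-18891405, minus strand) had the smallest difference of the members. Its cDC1 samples contained 122, 116 and 113 CPM and its cDC2 samples 160.3, 144 and 129 CPM, so that the groups stood apart by a small gap (log2 fold change -0.30 ± 0.0832 (SE), adjusted p = 0.00361). On counts without scaling by library, with limma, 7 of 10 members were lower, where 2763 of 19082 genes were. Rel, Rela and Tnfaip3 missed the threshold, but that treatment moved the median of all genes by 0.16 towards cDC1s.

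**Figure D1:**
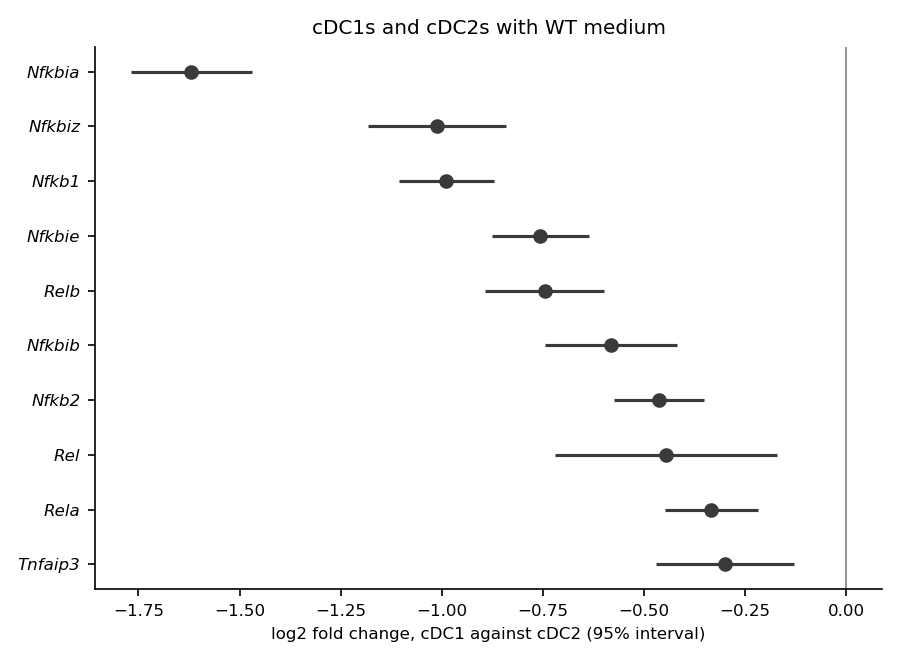
Log2 fold change of the 10 members in cDC1s against cDC2s with WT medium (x axis), each gene on its own line (y axis), with points for the estimate and bars for the 95% interval, from 3 samples per cell type. All 10 intervals lie below 0, from -1.62 for Nfkbia to -0.30 for Tnfaip3.

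To compare levels between genes, CPM were divided by the length of the canonical transcript in kb. In cDC1s with WT medium the order was Nfkb1 at 259.6 ± 6.29, Nfkbia at 205 ± 10.4, Nfkbib at 148 ± 6.51, Rel at 127 ± 3.68 and Nfkbie at 114 ± 1.82 CPM per kb (SD, n = 3). Then followed Rela at 70.9 ± 1.02, Nfkb2 at 66.4 ± 0.792, Relb at 43.7 ± 1.15, Tnfaip3 at 17 ± 0.65 and Nfkbiz at 10.9 ± 0.572 CPM per kb. Neighbours in this order were further apart than their SDs. In cDC2s with WT medium Nfkbia led at 629 ± 61.4, before Nfkb1 at 515 ± 27.6, Nfkbib at 221 ± 28.2, Nfkbie at 193 ± 9.32 and Rel at 173 ± 34.1 CPM per kb. The last 3 of these lay within their spread of each other. Lower levels were those of Nfkb2 at 91.5 ± 1.89, Rela at 89.4 ± 2.11, Relb at 73.4 ± 7.01, Nfkbiz at 21.9 ± 2.62 and Tnfaip3 at 20.9 ± 2.27 CPM per kb, where Nfkb2 and Rela, and Nfkbiz and Tnfaip3, did not differ beyond their spread.

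The length chosen matters for this order. With all annotated exons merged, Nfkb1 dropped to 95 CPM per kb in cDC1s, below Nfkbia at 167 and Rel at 127 CPM per kb, and in cDC2s Nfkbia at 512 was above Nfkb1 at 189 CPM per kb. Nfkbia was the highest of the inhibitors with either length and in both cell types, and Relb, Nfkbiz and Tnfaip3 were the lowest 3 members. Per canonical transcript, Nfkb1 made up 45.7% ± 0.736 of the summed subunit levels in cDC1s and 54.7% ± 0.309 in cDC2s with WT medium (SD, n = 3), and Rel 22.4% ± 0.444 and 18.3% ± 2.55. In cDC1s the share of Nfkb1 was 40.2% ± 0.633 with BimS medium and 43.2% ± 0.654 with RIPK3 medium (SD, n = 3). These shares depend on the length too. With merged exons Nfkb1 made up 25.9% ± 0.552 in cDC1s, below Rel at 34.7% ± 0.608, and 33.5% ± 0.609 in cDC2s, where Rel was at 30.6% ± 3.89. With this length the share of Nfkb1 in cDC1s was 22% ± 0.435 with BimS and 24.3% ± 0.525 with RIPK3 medium, again below that with WT medium.

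**Figure D2:**
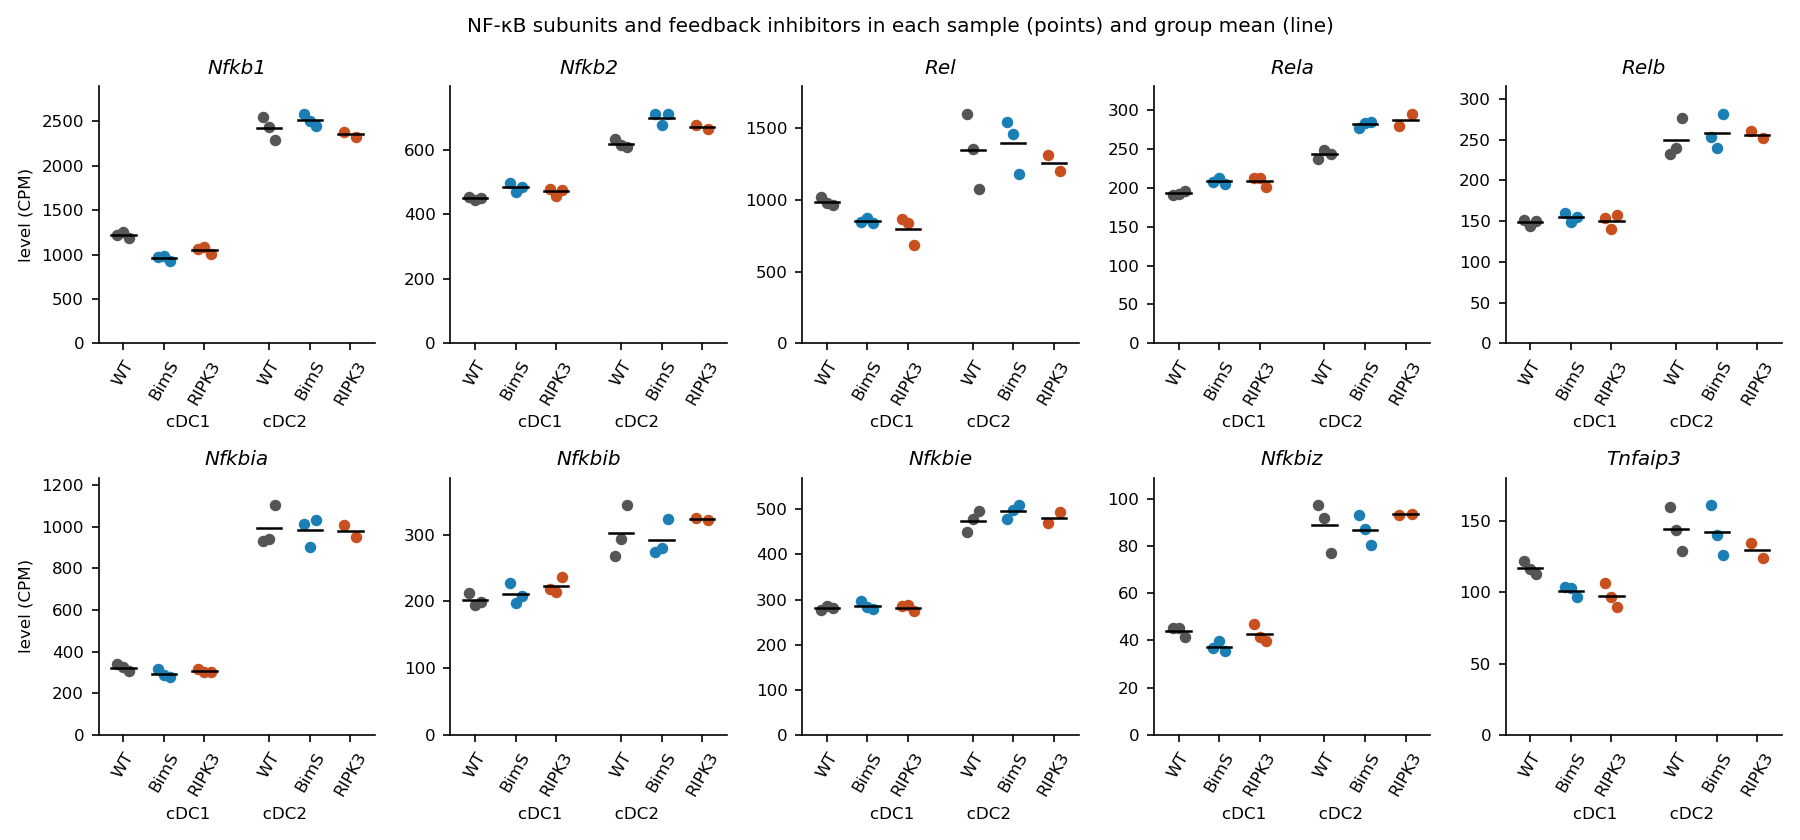
Level of each member in CPM (y axis, from 0) in the 6 groups (x axis, cDC1s on the left and cDC2s on the right), with a point for each of the 17 samples and a line for the group mean. The cDC1 samples lie below the cDC2 samples of the same medium for each member, and shifts between media are small beside that gap for most members.

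Debris of apoptotic cells was compared with WT medium in cDC1s. In this comparison 3 of 10 members fell and none rose, where 13.2% of the 19513 genes tested changed and 5.89% fell. Under a block for the replicate number 5 fell and 2 rose. With the filter filterByExpr, 2665 of 13243 genes changed and 1221 fell, and Rel fell as well (edgeR, adjusted p = 0.0403). The groups did not overlap for 6 of 10 members, against 29.5% of all genes. The median log2 fold change of the members was -0.05, and that of all genes was 0.00. The members that fell were the subunit Nfkb1, and Nfkbiz and Tnfaip3.

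Nfkb1 changed most, from 1224, 1249 and 1190.0 CPM with WT medium to 977, 983 and 927 CPM with BimS medium. Every BimS sample was below every WT sample and the level fell by 21.1% (log2 fold change -0.34 ± 0.0448 (SE), adjusted p = 3.01e-07). Tnfaip3 contained 122, 116 and 113 CPM with WT medium and 104, 103 and 96.8 CPM with BimS medium, a fall by 13.6% without overlap (log2 fold change -0.21 ± 0.0569 (SE), adjusted p = 0.00861). Nfkbiz contained 45.2, 45.4 and 41.3 CPM with WT medium and 36.8, 39.6 and 35.4 CPM with BimS medium, where the lowest WT sample was little above the highest BimS sample (log2 fold change -0.24 ± 0.0688 (SE), adjusted p = 0.0157). Single libraries decided the calls of these last members, while their log2 fold changes moved little. Without replicate 1 of the WT group both missed the threshold (Tnfaip3 -0.18, adjusted p = 0.0758, Nfkbiz -0.22, adjusted p = 0.0809), as they did without replicate 3 of the BimS group (Tnfaip3 -0.18, adjusted p = 0.078, Nfkbiz -0.20, adjusted p = 0.109). Nfkbiz also missed it without replicate 2 of the WT group (-0.21, adjusted p = 0.0772), while Nfkb1 passed without any one sample.

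Rel was close to the threshold. Its levels were 1019, 981 and 963 CPM with WT medium and 845, 872 and 843 CPM with BimS medium, groups that did not overlap (log2 fold change -0.21 ± 0.067 (SE), adjusted p = 0.0504). The adjusted p was 0.0346 with DESeq2, and 3.28e-06 without replicate 3 of the RIPK3 group, a library that enters this comparison through the shared estimate of spread. Nfkbia was at 339, 324 and 306 CPM with WT medium and 319, 288 and 277 CPM with BimS medium, with overlap (log2 fold change -0.13 ± 0.0518 (SE), adjusted p = 0.0924). Rela and Nfkb2 had higher means with BimS medium. Rela was at 190.3, 192 and 196 CPM and 207, 213 and 205 CPM (95% interval of the log2 fold change 0.02 to 0.21, adjusted p = 0.125). Nfkb2 was at 452, 442 and 451 CPM and 497, 469 and 484 CPM (95% interval 0.02 to 0.20, adjusted p = 0.121). The groups of both genes did not overlap, but neither passed the test.

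For the remaining members the intervals included 0, from -0.04 to 0.17 for Relb, -0.05 to 0.17 for Nfkbib and -0.07 to 0.12 for Nfkbie on the log2 scale. Samples with the same replicate number deviated together within a cell type, and with the number as a block 7 of 10 members passed, where 17.9% of all genes did. Under the block Rel (-0.21 ± 0.0462, adjusted p = 0.00122) and Nfkbia (-0.13 ± 0.0399, adjusted p = 0.00806) were lower too. Nfkb2 (0.11 ± 0.0382, adjusted p = 0.0339) and Rela (0.11 ± 0.0419, adjusted p = 0.0476) were higher.

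Debris of necroptotic cells gave a similar number of calls in cDC1s. Against WT medium 3 of 10 members fell and none rose, where 16.5% of all genes changed and 8.19% fell. Under the block 3 fell and 2 rose. With the filter filterByExpr, 3324 of 13243 genes changed and 1596 fell. The groups did not overlap for 6 of 10 members, against 29.9% of all genes. The median log2 fold change of the members was -0.02, and that of all genes was -0.01. The members that fell were Nfkb1, Rel and Tnfaip3. The comparison shares its WT samples with the preceding one.

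Nfkb1 was at 1063, 1082 and 1004 CPM with RIPK3 medium against 1224, 1249 and 1190.0 CPM with WT medium, a fall by 14% without overlap (log2 fold change -0.22 ± 0.0447 (SE), adjusted p = 0.000369). Rel was at 867, 839 and 683 CPM against 1019, 981 and 963 CPM, and replicate 3 of the RIPK3 group lay well below its companions (log2 fold change -0.31 ± 0.0671 (SE), adjusted p = 0.00348). Tnfaip3 was at 107, 96.8 and 90 CPM against 122, 116 and 113 CPM (log2 fold change -0.26 ± 0.0571 (SE), adjusted p = 0.000811). All RIPK3 samples were below all WT samples for these genes, and their calls held without any one sample. Nfkbiz, which fell with BimS medium, was at 47, 41.6 and 39.8 CPM with RIPK3 medium and overlapped the WT samples (95% interval -0.18 to 0.10 on the log2 scale, adjusted p = 0.81). Nfkbib was at 218, 214 and 237 CPM with RIPK3 medium, each sample above those with WT medium at 212, 195 and 199 CPM, with an adjusted p of 0.0695 (log2 fold change 0.14).

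Rela was at 212, 213 and 201 CPM with RIPK3 medium, again above the WT samples (95% interval 0.02 to 0.21 on the log2 scale, adjusted p = 0.106). The intervals were -0.02 to 0.16 for Nfkb2, -0.09 to 0.12 for Relb, -0.18 to 0.03 for Nfkbia and -0.09 to 0.10 for Nfkbie, all of which included 0. With the replicate number as a block, 5 of 10 members passed, where 21.0% of all genes did. Added to the 3 that fell were Rela (0.11 ± 0.042, adjusted p = 0.0413) and Nfkbib (0.14 ± 0.0426, adjusted p = 0.00711), both higher. Other measures also moved with the medium in cDC1s. The 8 macrophage and monocyte markers, at or above 1 CPM for 3 of them with WT medium and 1 with either debris, summed to 8.6 to 10.7 CPM with WT, 5 to 5.24 CPM with BimS and 4.15 to 5.7 CPM with RIPK3 medium. Fcgr1 had the highest mean of them, at 5 CPM with WT, 2.43 CPM with BimS and 1.15 CPM with RIPK3 medium, and Mertk was at 0 with BimS medium. The mitochondrial share of counts was 0.821 to 0.908% with WT, 0.94 to 0.95% with BimS and 0.939 to 0.959% with RIPK3 medium. Their part in the results was not tested.

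The direct comparison of necroptotic with apoptotic debris in cDC1s gave no member past the threshold with edgeR, where 4.15% of all genes passed, and 2 members had an unadjusted p under 0.05. DESeq2 and limma gave 0 members as well. The nearest were Nfkb1 (log2 fold change 0.12, 95% interval 0.03 to 0.22, adjusted p = 0.124) and Nfkbiz (0.20, 0.06 to 0.34, adjusted p = 0.11), whose 3 RIPK3 samples lay above the 3 BimS samples. These are the 2 of 10 members without overlap, against 19.2% of all genes. For Rel, the difference between the media was -0.10 with an interval of -0.24 to 0.04. Over the 10 members the intervals lay between -0.24 and 0.34. With the block, Nfkb1 (0.12 ± 0.0359, adjusted p = 0.0124) and Nfkbiz (0.20 ± 0.0596, adjusted p = 0.0188) were higher with RIPK3 medium, where 8.87% of all genes passed. Without replicate 3 of the RIPK3 group the same genes passed, at an adjusted p of 0.0116 and 0.0192.

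**Figure D3:**
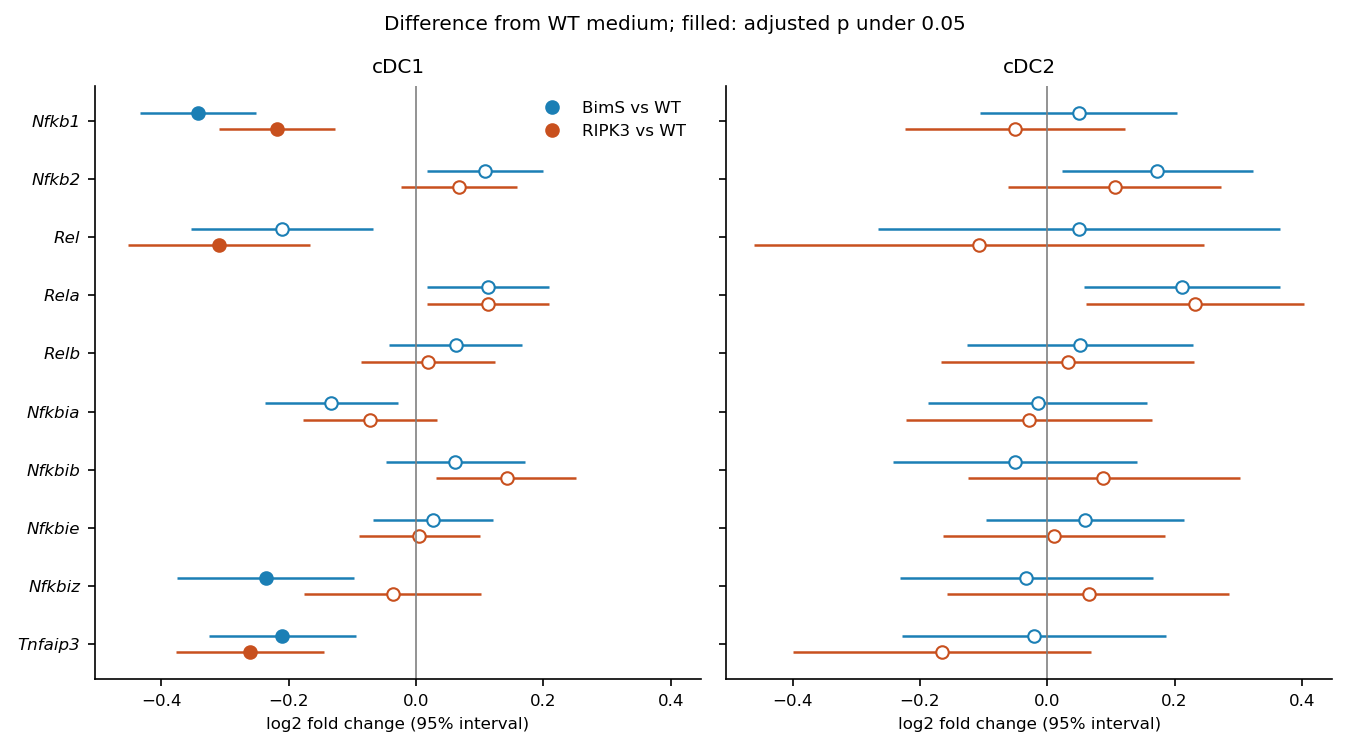
Log2 fold change of each member (y axis) with BimS or RIPK3 medium against WT medium in cDC1s (left) and cDC2s (right), with bars for the 95% interval and filled points for an adjusted p under 0.05 in the fit without a block. Filled points are 3 with BimS and 3 with RIPK3 medium in cDC1s, all below 0, and none in cDC2s, where the bars are wider.

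In cDC2s, the calls depended on whether samples with the same replicate number were treated as pairs. Without a block no member passed the threshold with edgeR in the 3 comparisons of media, and with the replicate number as a block 2 passed for BimS against WT, 4 for RIPK3 against WT and 4 for RIPK3 against BimS medium. Without the block 0 of 10 members passed for BimS against WT medium, where 7.01% of the 19239 genes tested did, and 2 had an unadjusted p under 0.05. For RIPK3 against WT medium 0 of 10 passed, where 7.21% of all genes did, and 1 had an unadjusted p under 0.05. RIPK3 against BimS medium gave 0 of 10, where 0.379% of all genes passed, and no member had an unadjusted p under 0.05. DESeq2 and both limma treatments also gave 0 in these 3 comparisons. In each of them the groups of 2 of 10 members did not overlap, against 23.0%, 34.1% and 26.8% of all genes. The mitochondrial share of counts in cDC2s was 0.629 to 0.661% with WT, 0.678 to 0.689% with BimS and 0.611 to 0.625% with RIPK3 medium, without overlap, and the macrophage and monocyte markers summed to 17.2 to 28.3, 17.9 to 20.7 and 15.1 to 19.4 CPM, with overlap. Their part in the results was not tested. The medians of the members were 0.05, 0.02 and -0.03 on the log2 scale, and those of all genes were -0.02, -0.02 and -0.01.

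Rela was nearest to the threshold in cDC2s. It was at 237, 248 and 244 CPM with WT medium, 277, 283 and 285 CPM with BimS medium and 279 and 295 CPM with RIPK3 medium. All samples with debris exceeded all WT samples. The log2 fold changes were 0.21 ± 0.0738 (SE, adjusted p = 0.101) and 0.23 ± 0.0821 (SE, adjusted p = 0.106), and under another filter on low counts the latter passed (filterByExpr, adjusted p = 0.0464). Nfkb2 was at 632, 615 and 607 CPM with WT, 711, 674 and 708 CPM with BimS and 675 and 664 CPM with RIPK3 medium, also without overlap with the WT samples (adjusted p = 0.186 and 0.549).

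Rel varied more between replicate numbers than between media. It was at 1603, 1359 and 1074 CPM with WT, 1544, 1459.7 and 1182 CPM with BimS and 1316 and 1201 CPM with RIPK3 medium, in the order of replicates 1, 2 and 3, of which the RIPK3 group lacks the last. In each medium replicate 1 was the highest, and the groups overlapped (95% interval -0.27 to 0.37 for BimS and -0.46 to 0.25 for RIPK3 against WT). Tnfaip3 likewise was highest in replicate 1, at 160.3, 144 and 129 CPM, 161, 140.3 and 126 CPM and 135 and 124 CPM (-0.23 to 0.19 and -0.40 to 0.07). Nfkbib was highest in replicate 3, at 268, 294 and 344 CPM with WT and 273, 279.5 and 324 CPM with BimS medium, and 325 and 321 CPM with RIPK3 medium.

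The groups of the remaining members overlapped with those of WT medium in cDC2s. Nfkb1 was at 2548, 2433 and 2289 CPM with WT, 2588, 2499 and 2449 CPM with BimS and 2385 and 2328 CPM with RIPK3 medium (95% interval -0.10 to 0.20 and -0.22 to 0.12 against WT). Nfkbia was at 932, 942 and 1104 CPM, 1013, 905 and 1032 CPM and 1009.8 and 949 CPM (-0.19 to 0.16 and -0.22 to 0.16). These are the members with the highest levels per kb, and both stayed within the range of the WT samples or close to it. Relb had intervals of -0.13 to 0.23 and -0.17 to 0.23, Nfkbie of -0.10 to 0.21 and -0.16 to 0.18, and Nfkbiz of -0.23 to 0.17 and -0.16 to 0.29.

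With the replicate number as a block, members passed in all 3 comparisons of cDC2s. For BimS against WT these were Rela (0.21 ± 0.0419, adjusted p = 6.59e-06) and Nfkb2 (0.17 ± 0.0391, adjusted p = 0.000102), both higher, which is 2 of 10 where 21.3% of all genes passed. For RIPK3 against WT, Rela (0.23 ± 0.0491, adjusted p = 2.68e-05) and Nfkbib (0.18 ± 0.0486, adjusted p = 0.00199) were higher. Rel (-0.23 ± 0.0445, adjusted p = 4.37e-06) and Tnfaip3 (-0.25 ± 0.0541, adjusted p = 5.84e-05) were lower in the same comparison, in which 21.4% of all genes passed. For RIPK3 against BimS, Nfkb1 (-0.13 ± 0.0438, adjusted p = 0.0197), Rel (-0.29 ± 0.0448, adjusted p = 7.48e-09) and Tnfaip3 (-0.22 ± 0.0542, adjusted p = 0.000531) were lower and Nfkbib (0.23 ± 0.0485, adjusted p = 7.21e-05) was higher, where 14.3% of all genes passed. The values with RIPK3 medium rest on 2 pairs of samples.

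**Figure D4:**
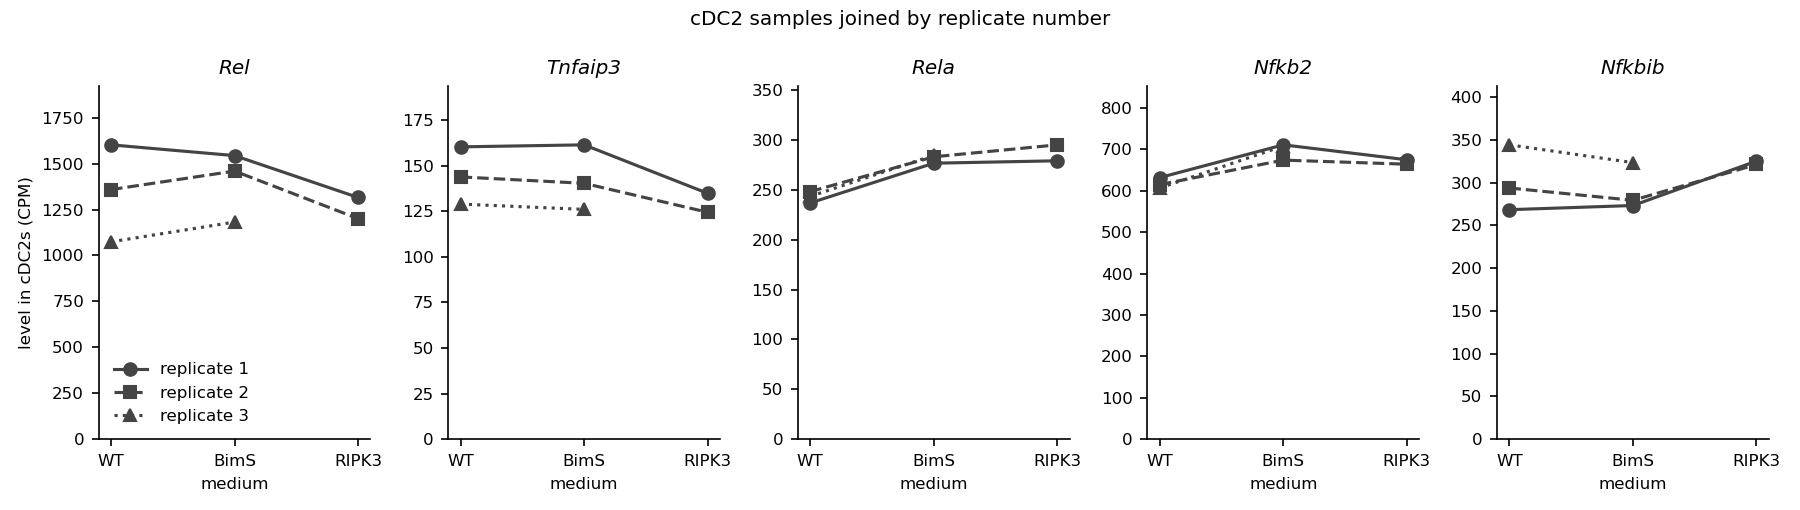
Level in CPM (y axis, from 0) of Rel, Tnfaip3, Rela, Nfkb2 and Nfkbib in cDC2s with WT, BimS and RIPK3 medium (x axis), with samples of the same replicate number joined. The lines for Rel and Tnfaip3 are set apart by replicate number, those of replicates 1 and 2 for Nfkbib cross between BimS and RIPK3 medium, and Rela and Nfkb2 rise from WT to BimS medium in each of 3 pairs.

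Whether cDC1s and cDC2s differed in their response was tested directly, without pairing the samples of the cell types. For BimS against WT medium the response of Nfkb1 was lower in cDC1s than in cDC2s (difference of log2 fold changes -0.40 ± 0.0809 (SE), adjusted p = 0.00943), which made 1 of 10 members where 0.87% of the 19082 genes passed. Nfkb1 had fallen in all 3 cDC1 samples and had a mean of 2512 ± 70.1 CPM (SD, n = 3) with BimS against 2424 ± 129.9 CPM (SD, n = 3) with WT medium in cDC2s. The call was lost without replicate 3 of the cDC1s with BimS medium (-0.37, adjusted p = 0.0528) and with limma on unscaled counts (-0.36 ± 0.148 (SE), adjusted p = 0.639). The other 9 members had adjusted p-values from 0.696 to 0.999 with edgeR. For Nfkbiz, which had fallen in cDC1s, the difference between the cell types was -0.21 with a 95% interval of -0.45 to 0.03. For Tnfaip3 it was -0.19 with an interval of -0.43 to 0.05.

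For RIPK3 against WT medium, edgeR gave 0 of 10 members with a different response, where 1.14% of all genes passed, and 1 member had an unadjusted p under 0.05. For RIPK3 against BimS medium it gave 0 of 10, where 0.0314% of all genes passed, and again 1 had an unadjusted p under 0.05. DESeq2 and limma gave 0 in both. That member was Nfkb1, with differences of -0.18 (95% interval -0.353 to -0.002) and 0.22 (0.04 to 0.39). For Rel and Tnfaip3, which had fallen with RIPK3 medium in cDC1s, the difference of the responses was -0.21 (-0.62 to 0.20) and -0.10 (-0.36 to 0.15).

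The members can be set beside 37 other genes of the pathway. This list was chosen with earlier results of these data known, so shares of all genes are no independent reference for it. With WT medium 22 of these were lower and 6 higher in cDC1s than in cDC2s, where 23.7% of all genes were lower and 22.5% higher. Traf1, a signaling adaptor, was at 665 ± 5.19 CPM in the cDC1 and 1485 ± 90.4 CPM in the cDC2 samples (SD, n = 3, log2 fold change -1.16 ± 0.0598 (SE), adjusted p = 5.92e-16), and Ikbkb, which encodes the kinase IKKβ, at 252 ± 6.86 CPM and 539.5 ± 28.2 CPM (log2 fold change -1.10 ± 0.0598 (SE), adjusted p = 2.11e-15). Chuk, which encodes the related kinase IKKα, was higher in cDC1s at 160.0 ± 3.65 CPM against 98.7 ± 10.3 CPM (log2 fold change 0.70 ± 0.0706 (SE), adjusted p = 1.63e-09). These genes were chosen after their values were seen.

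Calls of the pathway and target lists come from the fit without a block, and these lists were not examined under the block. With the block 17.9% (BimS) and 21.0% (RIPK3) of all genes passed against WT medium in cDC1s. In cDC2s these shares were 21.3% and 21.4%. Without it, in cDC1s, 6 of the 37 pathway genes rose and 6 fell with BimS medium, and 4 rose and 4 fell with RIPK3 medium. Of all genes in cDC1s, 7.31% rose and 5.89% fell with BimS medium, and 8.34% rose and 8.19% fell with RIPK3 medium. In cDC2s, 3 rose and 1 fell with BimS medium, and 4 rose and 1 fell with RIPK3 medium. Of all genes in cDC2s, 3.8% rose and 3.21% fell with BimS medium, and 3.93% rose and 3.28% fell with RIPK3 medium. Tnip3, which encodes a protein that binds A20, fell in all 4 comparisons. In cDC1s it was at 52.1 ± 3.82 CPM with WT, 34.7 ± 2.24 CPM with BimS and 26.1 ± 1.63 CPM with RIPK3 medium (SD, n = 3, log2 fold change -0.59 and -0.997, adjusted p = 3.3e-08 and 1.44e-13). In cDC2s it was at 85.4 ± 4.18 CPM, 46.6 ± 1.9 CPM and 43.2 ± 0.964 CPM (log2 fold change -0.87 and -0.99, adjusted p = 7.73e-07 and 7.48e-07). It was also lower with RIPK3 than with BimS medium in cDC1s (log2 fold change -0.41 ± 0.0731 (SE), adjusted p = 0.000416), where Ikbkb was lower as well (log2 fold change -0.18 ± 0.0485 (SE), adjusted p = 0.0205).

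The pathway genes that rose in cDC2s were Ikbkg, Tbk1 and Tnip2 with both kinds of debris and Irak2 with RIPK3 medium, and were named after their values were seen. Ikbkg, which encodes the regulatory subunit NEMO of the IκB kinase complex, went from 111 ± 6.85 CPM with WT medium to 274 ± 19.3 CPM with BimS and 229.9 ± 14.8 CPM with RIPK3 medium in cDC2s (adjusted p = 5.32e-09 and 2.73e-07). In cDC1s it went from 76.6 ± 2.28 CPM to 106 ± 0.582 CPM and 100.1 ± 3.25 CPM (adjusted p = 9.52e-09 and 4.22e-07). Exons of G6pdx and Fam3a overlap 5.34% of the exon bases of Ikbkg and had 122467 counts over all samples against 44970 for Ikbkg, so its value is uncertain. Tbk1, which encodes a kinase related to the IκB kinases, rose in cDC2s (log2 fold change 0.44 and 0.35, adjusted p = 0.00232 and 0.0261) and in cDC1s (0.44 and 0.43, adjusted p = 6.1e-08 and 7.33e-08).

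Of 26 listed target genes of NF-κB, 25 were in the table and tested. The target list, too, was chosen with earlier results of these data known, so shares of all genes are no independent reference for it. With WT medium 11 of the 25 were higher and 6 lower in cDC1s than in cDC2s, where 22.5% and 23.7% of all genes were. With BimS medium 6 rose and 7 fell in cDC1s, where 7.31% and 5.89% of all genes did, and 7 rose and 1 fell in cDC2s, where 3.8% and 3.21% did. With RIPK3 medium 6 rose and 5 fell in cDC1s, where 8.34% and 8.19% of all genes did, and 7 rose and 1 fell in cDC2s, where 3.93% and 3.28% did. Cxcl3 and Cxcl2, chemokines that attract neutrophils, rose in all 4. Cxcl3 went in cDC1s from 68.6 ± 7.44 CPM with WT medium to 492 ± 63.7 CPM with BimS and 700.2 ± 45.2 CPM with RIPK3 medium (SD, n = 3, adjusted p = 1.02e-06 and 2.81e-07). Its log2 fold changes were 2.84 and 3.35, against a range of -0.34 to 0.14 over the members in the same comparisons. Ptgs2, which encodes cyclooxygenase 2, rose in cDC2s from 34.3 ± 5.7 CPM to 109.6 ± 9.62 CPM and 186 ± 15.2 CPM (adjusted p = 1.68e-08 and 2.98e-10). In cDC1s it rose at low levels, from 0.656 ± 0.132 CPM to 1.61 ± 0.543 CPM and 2.72 ± 0.183 CPM (adjusted p = 0.00255 and 5.11e-07).

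Of the 13 targets of maturation and survival, some rose and others fell. In cDC1s 3 of them rose and 6 fell with BimS medium, and 2 rose and 5 fell with RIPK3 medium. In cDC2s 4 rose and 1 fell with BimS medium, and 3 rose and 1 fell with RIPK3 medium, beside the same shares of all genes. Those that rose, named after their values were seen, were Irf1, which encodes an interferon-regulatory transcription factor, and Sod2, which encodes mitochondrial superoxide dismutase, in all 4 comparisons. Ier3, an immediate early gene, rose in all but RIPK3 against WT medium in cDC1s, and the stress gene Gadd45b rose with BimS medium in cDC2s. Irf1 went in cDC2s from 75.5 ± 2.7 CPM with WT medium to 108 ± 4.74 CPM with BimS and 103 ± 5.5 CPM with RIPK3 medium (adjusted p = 0.00024 and 0.00284). Among those that fell in cDC1s, Ccr7, the receptor that guides dendritic cells to lymph nodes, was at 549.9 ± 44.6 CPM with WT, 373 ± 51 CPM with BimS and 344 ± 30.2 CPM with RIPK3 medium (SD, n = 3, adjusted p = 0.0153 and 0.00505). Ccl22, which encodes a chemokine that attracts regulatory T cells, fell in cDC1s with RIPK3 medium from 157 ± 33.4 CPM to 78.4 ± 15.9 CPM, close to the threshold (log2 fold change -1.005, adjusted p = 0.0485). Cd83, a surface marker of mature dendritic cells, fell in cDC2s with BimS medium from 1531 ± 116 CPM to 1158 ± 40.3 CPM (log2 fold change -0.41 ± 0.0754 (SE), adjusted p = 0.00148). In cDC1s it fell with both kinds of debris (log2 fold change -0.38 and -0.31, adjusted p = 7.48e-08 and 2.27e-06). Cd40, the receptor for CD40 ligand on T cells, fell in cDC2s with RIPK3 medium from 88.7 ± 7.94 CPM to 63.4 ± 0.71 CPM (log2 fold change -0.49 ± 0.099 (SE), adjusted p = 0.0027), and in cDC1s with BimS and with RIPK3 medium (log2 fold change -0.21 and -0.31, adjusted p = 0.0103 and 0.000167). Of the inflammatory targets, Il6, which encodes the cytokine IL-6, was lower in cDC1s with BimS medium (log2 fold change -0.49 ± 0.0666 (SE), adjusted p = 5.81e-07) and higher with RIPK3 than with BimS medium in cDC1s (log2 fold change 0.51 ± 0.0668 (SE), adjusted p = 4.27e-06) and cDC2s (log2 fold change 0.50 ± 0.106 (SE), adjusted p = 0.0429). Against WT medium, RIPK3 medium gave a log2 fold change of 0.01 in cDC1s (adjusted p = 0.935), and Il6 rose in cDC2s (log2 fold change 0.72, adjusted p = 0.000106). Il1b, which encodes interleukin 1β, was higher with RIPK3 than with BimS medium in cDC1s (log2 fold change 0.15 ± 0.043 (SE), adjusted p = 0.033).

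**Figure D5:**
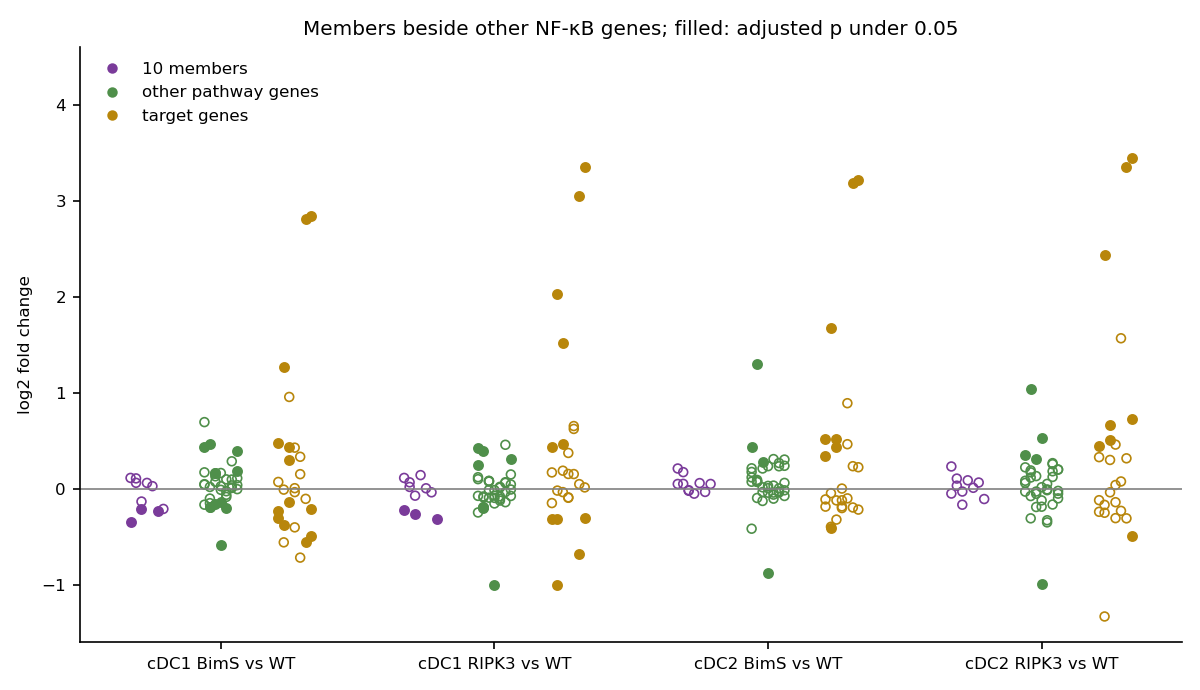
Log2 fold change (y axis) of the 10 members, 37 other pathway genes and 25 target genes in 4 comparisons with WT medium (x axis), with a point per gene, filled where the adjusted p is under 0.05. The members lie between -0.34 and 0.23, while Cxcl2 and Cxcl3 among the targets reach 2.81 to 3.44.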

How the data were processed

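Polyadenylated RNA of 17 sorted samples was sequenced. The authors trimmed reads with SeqPurge, aligned them with STAR 2.7.10a to the GRCm39 genome and assigned them to Ensembl genes with gensum. The table they deposited holds these raw counts. Whether counting used strand is not given in the sources used here. A second table with log2 values of the same counts was not used. Of 31239 lines, 148 without identifier (0.0258 to 0.0366% of the counts of a sample) were left out, and 30854 of 31091 identifiers were matched to GENCODE M39 for symbols, lengths and coordinates.

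Groups were compared with edgeR 4.0.16 in R 4.3.3 (robust quasi-likelihood, TMM). A gene was tested if 50% or more of the samples in that fit had a count for it. The cDC1 samples, the cDC2 samples, and all samples (for cell types and interactions) were fitted separately. The test was checked on simulated counts, where it recovered fold changes without bias but the share of false calls exceeded the nominal 5% in each comparison simulated, so an adjusted p near the threshold is less firm than its value. Alternatives were DESeq2 1.42.0, RLE scaling, other filters, limma 3.58.1 on log2(count + 1), the study's own treatment of the counts, and on log2 CPM with a prior count of 2, the replicate number as a block, and each sample left out. Dividing levels by merged exons was added after seeing the data. The members and the pathway and target lists were chosen with earlier results of these data known. Pathway and target genes were named where they were among the 3 largest rises or falls past the threshold without overlap, with further genes marked where they are named.

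Replicate numbers come from the labels. Over 7783 genes, all 16 pairs with the same number within a cell type had correlated deviations from their group means (above 0.1, median 0.355, lowest 0.148), against 4 of 32 pairs with other numbers (median -0.188), so the numbers were taken to pair samples within a cell type. Between cell types 19 of 24 same-number pairs were above 0.1 (median 0.21, lowest -0.19), against 5 of 48 pairs with other numbers (median -0.101). The main fit of all samples did not pair them. With the replicate number as a block, that fit shared the effect of a number across the cell types. Each sample had 16095159 to 21645289 counts on genes, and intervals are at a confidence level of 95%.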

Additional observations from a re-analysis of the deposited data

Results flagged for a closer look

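Nfkb1 responded differently to BimS medium in cDC1s and cDC2s, which is what singled it out. The difference between the cell types in log2 fold change, by the interaction term in edgeR, was -0.395 ± 0.0809 (SE, adjusted p = 0.00943). It fell in cDC1s (log2 fold change -0.34, 3 of 3 samples below all WT samples) and had a log2 fold change of 0.05 with a 95% interval of -0.10 to 0.20 in cDC2s. No group held the 4 samples needed to test whether a sample stood apart from the others.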

How the results depend on the processing

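Of 1890 values of single members under other tests, scalings, filters, the block or without 1 sample, 1846 stayed on their side of the threshold, 13 dropped below it and 31 newly passed it. The sign changed in 98 of the 1846, of which 24 arose with limma on unscaled counts and 62 without 1 sample. None of these 98 passed the threshold under either setting, and with edgeR their log2 values were at most 0.113 in size. Of 189 counts of members, 175 stayed within 1.5 times the main value. Leaving out 1 sample gave 1 to 5 members for BimS against WT in cDC1s (1 without WT replicate 1 or BimS replicate 3, 5 without RIPK3 replicate 3), 0 to 2 for RIPK3 against BimS in cDC1s (2 without RIPK3 replicate 3) and 0 to 1 for the interaction with BimS (0 without cDC1 BimS replicate 3). With limma on unscaled counts, BimS against WT in cDC1s gave 1 member and the interaction with BimS gave 0. This treatment called 768 genes higher and 1981 lower for RIPK3 against WT in cDC1s, where edgeR called 1628 and 1598, and 4987 higher and 2763 lower in cDC1s against cDC2s, where edgeR called 4290 and 4518, and it moved the median of all genes by -0.12 and 0.16. With the replicate number as a block, cDC1s gave 7 members for BimS against WT, 5 for RIPK3 against WT and 2 for RIPK3 against BimS, and cDC2s gave 2, 4 and 4. The block left the 10 members between cell types and the 1, 0 and 0 members of the interactions as they were. The filter filterByExpr gave 1 member for RIPK3 against WT in cDC2s. Each member that passed in a comparison with edgeR also passed in it with DESeq2 and with filterByExpr. The causes were not tested. In cDC2s with RIPK3 medium 2 samples limit the precision, and the common coefficient of biological variation was 9.58% in cDC2s and 5.55% in cDC1s.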
